A study of Mus musculus with 9 samples.

Results

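Mouse genes whose products carry, transport, take up or degrade amyloid beta, 9 in all, were examined in the hippocampus: the lipoproteins Apoe and Clu, the lipid transporters Abca1 and Abca7, the receptors Lrp1 and Sorl1, and the peptidases Ide, Mme and Ece1. They were found by gene name in the deposited annotation, which held 1 row for each of the 9, out of 33175 genes with FPKM values. All 9 passed the filter on low counts, among 17396 genes tested. The 9 RNA-seq libraries came from 9-month-old females and formed 3 groups of 3. The 3xTg LP-10d group carried the transgenes labelled APPSwe, tauP301L and a PS1 mutation and received the compound LP-10d by mouth at 10 mg/kg, 4 times a week for 1 month. The 3xTg vehicle group carried the same kind of transgenes and received a blank solvent by mouth 4 times a week. The WT vehicle group was C57BL/6J and received the same solvent on the same schedule, so every mouse was dosed orally. The PS1 label counts up by 1 from library to library, from M146V, M147V and M148V in 3xTg vehicle to M149V, M150V and M151V in 3xTg LP-10d, and the 3xTg libraries are treated here as 1 genotype. In the 3xTg line, as background, the human APP and tau transgenes are driven by the neuronal Thy1 promoter, and the line may differ from C57BL/6J in strain background, which cannot be told apart from the transgenes. LP-10d is known here by its code name, and the series title describes the work as kinase modulation. Nothing in the labels ties a replicate to an animal of its own, and the p-values below therefore measure the spread between these samples, which may be technical.

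Amyloid beta is a peptide cut from the amyloid precursor protein, and its level in brain tissue depends on removal as well as on production. Apolipoprotein E and clusterin are secreted, largely by astrocytes in the healthy brain, as lipid-bearing particles that bind the peptide. ABCA1 loads apolipoprotein E with cholesterol and phospholipid, and ABCA7 is a related transporter whose human gene carries risk variants for Alzheimer disease, as do the human genes of apolipoprotein E, clusterin and SORL1. LRP1 is an endocytic receptor for lipoproteins and for amyloid beta, and SORL1 is a sorting receptor that directs the precursor protein away from the compartments where it is cut. Insulin-degrading enzyme (Ide), neprilysin (Mme) and endothelin-converting enzyme (Ece1) are metallopeptidases that cleave the peptide. In the authors' deposited annotation, the term amyloid-beta clearance was attached to Apoe, Clu, Abca7, Lrp1, Ide and Mme, which makes 6 of the 9 genes and 19 of all 33175.

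The genes lie on 7 chromosomes of the mm10 build. Apoe (ENSMUSG00000002985) spans 19696109 to 19699188 on the minus strand of chromosome 7. Clu (ENSMUSG00000022037) spans 65968483 to 65981547 on the plus strand of chromosome 14. Abca1 (ENSMUSG00000015243) covers 53030787 to 53159895 on the minus strand of chromosome 4, where Ece1 (ENSMUSG00000057530) covers 137862237 to 137965229 on the plus strand. Chromosome 10 holds Abca7 (ENSMUSG00000035722), at 79996494 to 80015572 on the plus strand, and Lrp1 (ENSMUSG00000040249), at 127538161 to 127621148 on the minus strand. Sorl1 (ENSMUSG00000049313) is at 41964720 to 42124297 on the minus strand of chromosome 9. Ide (ENSMUSG00000056999) is at 37268743 to 37337852 on the minus strand of chromosome 19, and Mme (ENSMUSG00000027820) at 63241537 to 63386030 on the plus strand of chromosome 3. All 9 are protein-coding, with positions equal to those in GENCODE M21. Lrp1, Sorl1 and Ece1 each overlap an annotated antisense gene and Ide a processed pseudogene, and these 4 neighbours had at most 4 counts in any library.

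The 250 bases before the annotated start are shown for Apoe, which had the smallest p of the 9 genes in the comparison of 3xTg with wild type, for Ece1, a peptidase that leaned the other way, and for Abca1, the transporter that lipidates apolipoprotein E. The sequences are from RefSeq on build GRCm38.p6 (mm10), 5' to 3' on the strand of the gene, and each window ends at the base before the deposited gene start. The windows are chr7:19699189-19699438 (minus) for Apoe, chr4:137861987-137862236 (plus) for Ece1 and chr4:53159896-53160145 (minus) for Abca1. Capitals mark matches, on either strand, to the motifs named after them.
Apoe: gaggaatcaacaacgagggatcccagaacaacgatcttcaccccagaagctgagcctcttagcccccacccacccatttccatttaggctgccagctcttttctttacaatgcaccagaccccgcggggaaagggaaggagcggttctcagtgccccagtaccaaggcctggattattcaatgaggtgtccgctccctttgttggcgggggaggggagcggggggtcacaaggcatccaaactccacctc
Ece1: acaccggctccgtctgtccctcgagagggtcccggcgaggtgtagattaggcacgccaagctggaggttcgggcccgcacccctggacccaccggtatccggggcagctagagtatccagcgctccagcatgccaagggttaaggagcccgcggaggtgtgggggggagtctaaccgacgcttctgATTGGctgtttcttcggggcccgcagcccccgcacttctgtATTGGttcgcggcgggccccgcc
Abca1: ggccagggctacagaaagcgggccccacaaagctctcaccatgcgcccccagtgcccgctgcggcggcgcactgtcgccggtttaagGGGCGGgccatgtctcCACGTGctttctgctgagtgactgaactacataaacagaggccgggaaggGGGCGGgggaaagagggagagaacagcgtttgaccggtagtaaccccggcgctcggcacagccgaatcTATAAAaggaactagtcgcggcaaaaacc
The motifs searched were 7: the GC box GGGCGG, the CCAAT box CCAAT, the TATA box TATAAA, the E-box CACGTG, the AP-1 site TGACTCA, the nuclear receptor site AGGTCA and the liver X receptor direct repeat (AGGTCA, any 4 bases, AGGTCA), which contains that site. Over windows of the same length before 32851 mouse promoter starts, the shares that hold them are 32.7%, 33.8%, 12.4%, 6.02%, 4.46%, 14.0% and 0.0152% in that order. The Apoe window held none of these letter strings. The Ece1 window held CCAAT in reverse at 2 places, and the Abca1 window held 2 GC boxes, 1 E-box and 1 TATA box. Apoe and Ece1 have further promoter starts, not shown, with other matches. The window of a further Apoe start held TATA box letters, and that of a further Ece1 start held 2 GC boxes. The G+C share was 57.2% for Apoe, 66.8% for Ece1 and 61.6% for Abca1, against a median of 52.4% over all promoters, with 8, 22 and 20 CpG dinucleotides in the same order. A match describes the letters and is not evidence of a bound factor. Only these exact strings were searched, so a site that differs from them by a base is left unmarked. The lack of a match, as for the liver X receptor repeat in the Abca1 window, does not show that a window lacks such a site.

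Total counts ran from 16582086 to 19170969 per library, and the 9 genes together took 0.422% to 0.498% of them. No library pair within a group agreed within sampling noise. The chi-square over its degrees of freedom was 48.2 and 51.1 for the pairs with WT vehicle replicate 3. It was 4.99 to 21.2 for the other pairs. Marker genes of neighbouring tissue varied between libraries: in CPM, which are counts scaled to a common library size, 14 choroid plexus markers summed to between 195.9 and 4025 in 3xTg LP-10d, between 193.4 and 1560 in 3xTg vehicle and between 232.4 and 6411 in WT vehicle. The sum of 10 striatum markers reached 1581 CPM in replicate 2 of 3xTg vehicle, where the remaining 8 libraries had 188.8 to 322.2 CPM, and that library also had the lowest sum of 10 markers of hippocampal fields (668.1 CPM, against 1010 to 1286 CPM elsewhere). WT vehicle replicate 3 had 5.04% mitochondrial counts, against 2.28% to 2.86% in the others. It also had the highest sum of 8 thalamus markers, at 479.2 CPM. This sum was 389.1 CPM in 3xTg vehicle replicate 2 and 137.1 to 212.8 CPM elsewhere. All 14 choroid plexus, 10 striatum, 12 astrocyte and 10 oligodendrocyte markers were detected in every library. The summed level of the 12 astrocyte markers was 6025 to 6411 CPM in the treated 3xTg libraries, 5679 to 6081 in the 3xTg vehicle ones and 5652 to 6538 in WT vehicle, with overlapping ranges. The 10 oligodendrocyte markers summed to 6216 to 8333 CPM in the treated 3xTg libraries, to 5325 to 6769 in the 3xTg vehicle ones and to 7487 to 7997 in WT vehicle.

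The levels of the 9 genes were first set in order, on the deposited FPKM scale, which corrects for gene length. Apoe was the highest, with a mean of 814.6 FPKM over the 9 libraries and a range of 728.7 to 970.4, and ranked between place 12 and place 18 among all genes of a library. Clu followed with a mean of 324.3 FPKM (265.6 to 411.1) and a place between 42 and 72. The lipoproteins thus stood far above their receptors, Lrp1 at a mean of 59.3 FPKM and Sorl1 at 35.7 FPKM. The peptidase Ece1 had a mean of 11.7 FPKM, and the transporters Abca7 and Abca1 had 8.01 and 4.50 FPKM. Ide had a mean of 1.89 FPKM and Mme, the lowest, 0.435 FPKM. Each gene was above the next in this order in all 9 libraries. Across libraries the neighbours' ranges were apart except for Ece1 and Abca7, where the lowest Ece1 value (9.64 FPKM, WT vehicle replicate 1) lay just under the highest Abca7 value (9.65 FPKM, WT vehicle replicate 2). Within a library, Apoe was 2.21 to 2.77 times as abundant as Clu per unit of length.

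**Figure D1:**
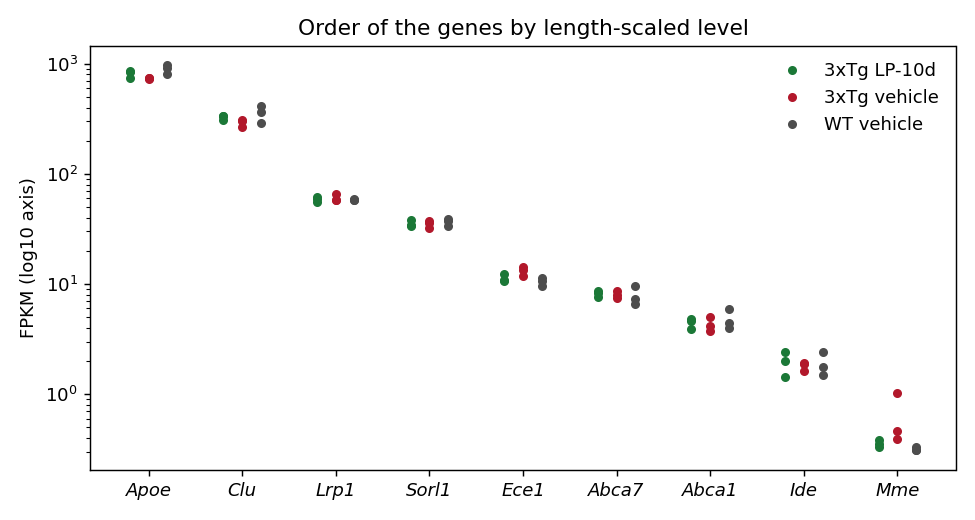
Deposited FPKM (log10 axis) of the 9 genes in each library, ordered by mean level; each point is 1 library, with 3xTg LP-10d, 3xTg vehicle and WT vehicle from left to right within a gene. Apoe is highest at 728.7 to 970.4 FPKM, and the 1 point that stands clear of its group is Mme in 3xTg vehicle replicate 2, at 1.03 FPKM.

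The genes also differed in how much they varied between libraries, on the scale of CPM with trimmed-mean (TMM) scaling that is used from here on. Mme varied most, with its highest library at 3.40 times its lowest. The ratio was 1.76 for Ide, 1.67 for Clu, 1.57 for Abca1, 1.43 for Ece1, 1.35 for Apoe, 1.34 for Abca7, 1.26 for Sorl1 and 1.18 for Lrp1. Lrp1 was thus the steadiest of the 9, and 3xTg vehicle replicate 2 held the highest values of Mme, Ece1 and Lrp1 and the lowest of Apoe, Clu and Sorl1.

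The first comparison asked how these genes differ between 3xTg vehicle and WT vehicle hippocampus. The lipoproteins Apoe and Clu had lower means in 3xTg vehicle, the peptidases Mme and Ece1 had higher ones, and the groups overlapped for all genes but Apoe and Mme. None of the 9 passed a Benjamini-Hochberg adjusted p of 0.05 over all genes in the quasi-likelihood test of edgeR, where 0.00575% of all tested genes (1 of 17396) passed. At an unadjusted p under 0.05, 4 of the 9 genes passed in edgeR (Apoe, Clu, Mme and Ece1), against 14.1% of all tested genes. In bulk tissue, fewer cells of a type and less RNA per cell cannot be told apart.

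Apoe stood at 1592, 1541 and 1573 CPM in 3xTg vehicle and at 1786, 2017 and 2075 CPM in WT vehicle. The 3 3xTg vehicle libraries lay close together and all under the lowest WT vehicle library. The means were 1569 ± 25.7 CPM in 3xTg vehicle and 1959 ± 153 CPM in WT vehicle (SD, n = 3 each), a log2 fold change of -0.32 ± 0.095 (SE), or 0.801-fold with a 95% interval of 0.691 to 0.928. The edgeR p was 0.00714 and its adjusted p 0.220. DESeq2, run as an alternative, gave the same log2 fold change of -0.32 with adjusted p = 0.0175, the 1 call among the 9 genes, in a test that called 1.99% of all genes (340 of 17043). That DESeq2 call rested on the set of libraries. It held without WT vehicle replicate 1 (DESeq2 adjusted p = 0.00359), WT vehicle replicate 3 (0.0336) or 3xTg LP-10d replicate 3 (0.0265). It was lost when any 1 of the other 6 libraries was left out, where DESeq2's adjusted p ran from 0.0523 to 0.223. The log2 fold change stayed negative throughout. With 1 library left out, it ran from -0.39 to -0.28 in DESeq2 and from -0.38 to -0.28 in edgeR.

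The choroid plexus marker sum moved with Apoe in part. The 2 highest Apoe values, in WT vehicle replicates 3 and 2, were in libraries with sums of 3996 and 6411 CPM, and the 3xTg vehicle libraries with Apoe at 1541 to 1592 CPM had sums of 193.4 to 1560 CPM. WT vehicle replicate 1 had a sum of 232.4 CPM and an Apoe level of 1786 CPM, above all 3 3xTg vehicle libraries. With the choroid plexus and striatum sums as covariates, the Apoe log2 fold change was -0.24 (edgeR adjusted p = 0.557). Of the 12 astrocyte markers, 4 had positive and 8 negative log2 fold changes with a median of -0.04, and 0 passed edgeR (2 at an unadjusted p under 0.05). Without overlap, 3 of the 12 were lower and 0 higher, where 7.99% and 9.38% of all tested genes were. The lower ones included Gfap (log2 fold change -0.39) and Sox9 (-0.50). The oligodendrocyte marker sum also moved with Apoe, at 5325 to 6769 CPM in the 3xTg vehicle libraries and 7487 to 7997 CPM in the WT vehicle ones, without overlap. Of these 10 markers, 2 had positive and 8 negative log2 fold changes with a median of -0.29, and 0 passed edgeR (3 at an unadjusted p under 0.05). Among the 10, 3 were lower without overlap, including the myelin genes Mbp and Mobp, against 7.99% of all tested genes. The part of the choroid plexus markers alone, or of the astrocyte and oligodendrocyte markers, in the Apoe difference was not tested.

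Clu, the other abundant lipoprotein gene, stood at 1031, 903 and 1041 CPM in 3xTg vehicle and at 1036, 1215 and 1507 CPM in WT vehicle. These groups overlapped, since WT vehicle replicate 1 lay between 2 of the 3xTg vehicle libraries. The log2 fold change was -0.34 ± 0.13 (SE; 95% interval -0.63 to -0.05), with an edgeR p of 0.0275 and an adjusted p of 0.308. WT vehicle replicate 3 held the highest Clu value, and without it the log2 fold change was -0.19 (edgeR adjusted p = 0.428). It was -0.20 with the marker sums as covariates (edgeR adjusted p = 0.710), so both the library and the covariates moved the value by more than 1.5 times.

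**Figure D2:**
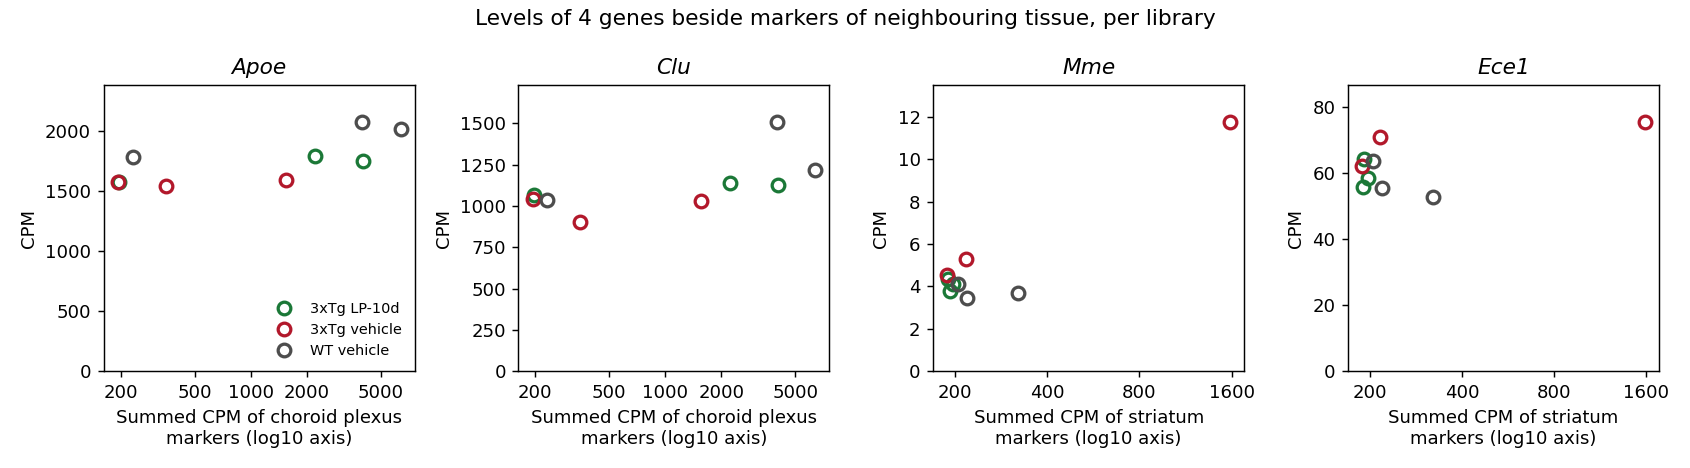
CPM of Apoe and Clu against the summed CPM of 14 choroid plexus markers, and of Mme and Ece1 against that of 10 striatum markers; each circle is 1 of the 9 libraries, coloured by group, and the horizontal axes are log10. The 3xTg vehicle library with a striatum sum of 1581 CPM has the highest Mme, at 11.8 CPM, and the WT vehicle library with a choroid plexus sum of 232.4 CPM has Apoe at 1786 CPM.

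Among the transporters, Abca1 stood at 42.8, 51.7 and 38.2 CPM in 3xTg vehicle and at 42.3, 59.9 and 48.95 CPM in WT vehicle, with overlapping groups. Abca7 stood at 50.3, 57.4 and 53.7 CPM in 3xTg vehicle and at 50.7, 63.4 and 47.3 CPM in WT vehicle, and its 3xTg vehicle libraries all lay inside the range of the WT vehicle ones. The log2 fold changes were -0.19 for Abca1 (95% interval -0.52 to 0.14) and 0.00 for Abca7 (-0.25 to 0.25), with edgeR adjusted p of 0.571 and 0.999. The Abca1 value depended on single libraries, at -0.05 once WT vehicle replicate 2 was left out and at -0.31 once 3xTg vehicle replicate 2 was. On the linear scale the 95% interval was 0.698 to 1.10-fold for Abca1 and 0.840 to 1.19-fold for Abca7.

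Both receptor genes had overlapping groups. Lrp1 stood at 1028, 1162 and 1016 CPM in 3xTg vehicle and at 1088, 1005 and 1096 CPM in WT vehicle. Sorl1 stood at 423.9, 361.3 and 402 CPM in 3xTg vehicle and at 454.3, 371.2 and 453.8 CPM in WT vehicle. The log2 fold changes were 0.01 for Lrp1 (95% interval -0.19 to 0.20) and -0.11 for Sorl1 (-0.34 to 0.13), with edgeR adjusted p of 0.979 and 0.649. With 1 library left out, the Sorl1 value ran from -0.20 (without WT vehicle replicate 2) to -0.05 (without 3xTg vehicle replicate 2).

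Of the peptidases, Mme was set apart by 1 library. It stood at 4.53, 11.8 and 5.28 CPM in 3xTg vehicle and at 3.71, 3.46 and 4.12 CPM in WT vehicle. These levels rest on 86, 207 and 97 counts in 3xTg vehicle and 65, 66 and 74 counts in WT vehicle. All 3 3xTg vehicle libraries were above all 3 WT vehicle libraries, and replicate 2 of the 3xTg vehicle group stood apart from the other two. The log2 fold change was 0.93 ± 0.32 (SE; 95% interval 0.21 to 1.65), with an edgeR p of 0.0169 and an adjusted p of 0.278. Without 3xTg vehicle replicate 2 it was 0.38 (edgeR adjusted p = 0.473), and with the marker sums as covariates 0.53 (edgeR adjusted p = 0.516). That library is the one with the striatum marker sum of 1581 CPM, so leaving it out and the covariates are not separate checks. The level of Drd2, the dopamine D2 receptor gene, was 79.8 CPM in that library, and no other library had more than 9.60 CPM. The same library also had the lowest sum of hippocampal field markers, at 668.1 CPM. The part of neighbouring tissue in the Mme difference was not tested.

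Ece1 stood at 62.0, 75.3 and 70.95 CPM in 3xTg vehicle and at 52.6, 55.4 and 63.5 CPM in WT vehicle. Only the highest WT vehicle library reached into the range of the 3xTg vehicle libraries. The means were 69.4 ± 6.75 CPM in 3xTg vehicle and 57.2 ± 5.67 CPM in WT vehicle (SD, n = 3 each), a log2 fold change of 0.28 ± 0.10 (SE; 95% interval 0.05 to 0.51), with an edgeR p of 0.0227 and an adjusted p of 0.296. The log2 fold change was 0.22 without 3xTg vehicle replicate 2 and 0.27 with the marker sums as covariates (edgeR adjusted p = 0.513 and 0.607). Ide stood at 14.1, 14.3 and 11.98 CPM in 3xTg vehicle and at 18.8, 13 and 12.01 CPM in WT vehicle, with a log2 fold change of -0.12 (95% interval -0.59 to 0.35; edgeR adjusted p = 0.820).

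**Figure D3:**
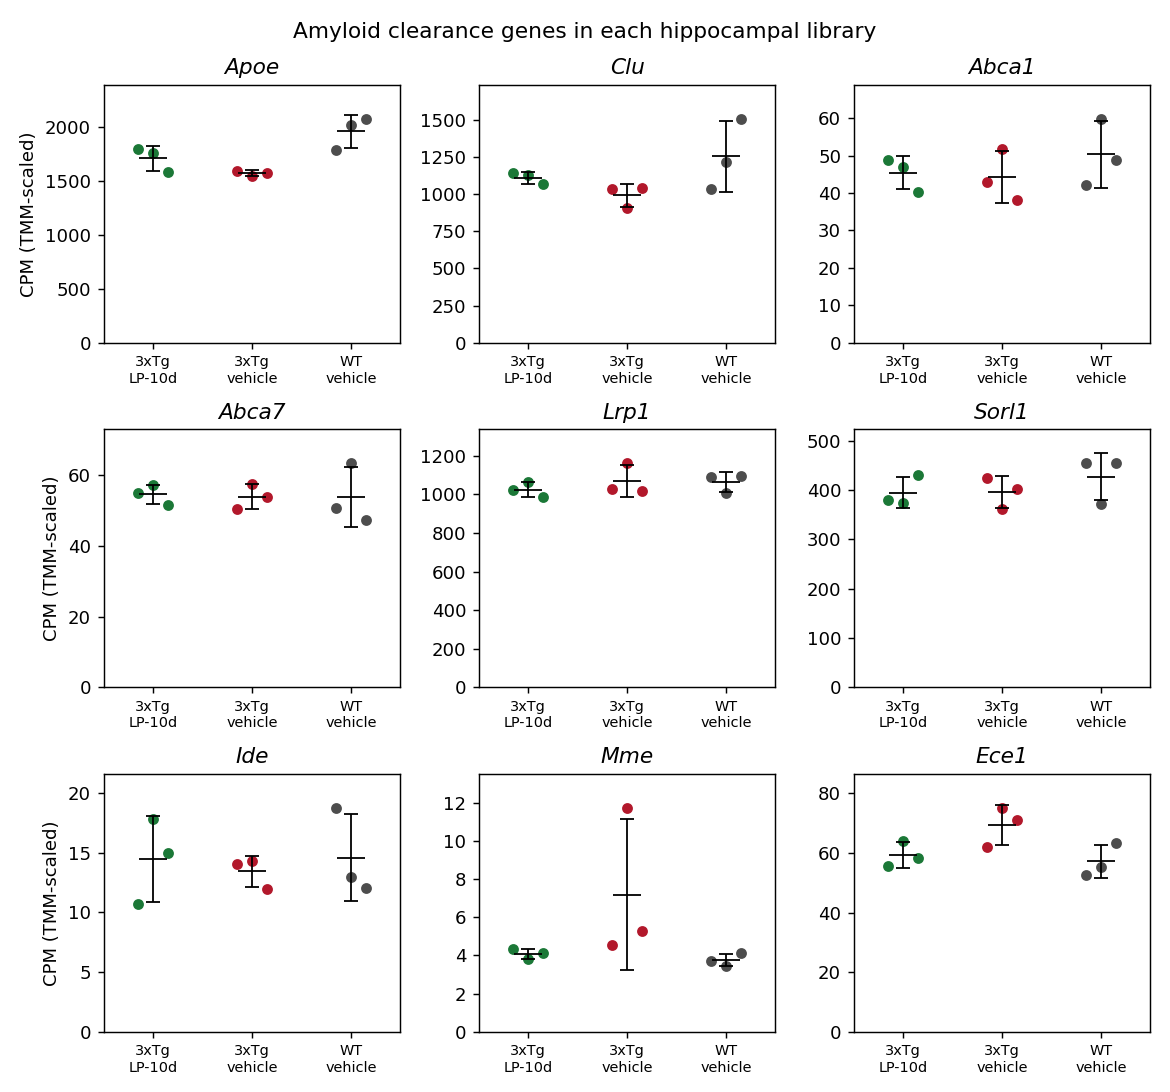
CPM (TMM-scaled, linear axis from 0) of each of the 9 genes in every library; points are libraries in the order of their replicate numbers, and the bars are the mean ± SD of 3 libraries in 3xTg LP-10d, 3xTg vehicle and WT vehicle. Apoe in 3xTg vehicle lies at 1541 to 1592 CPM, under all WT vehicle libraries, and the wide bar of Mme in 3xTg vehicle comes with the 1 library at 11.8 CPM.

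Over the 9 genes, the groups did not overlap for 2, against 17.4% of all tested genes. Apoe was lower without overlap, as were 7.99% of all tested genes, and Mme was higher without overlap, as were 9.38%. The median log2 fold change of the 9 was -0.11, with 3 above and 6 below 0, beside a median of 0.000661 and 50.2% above 0 over all tested genes.

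The second comparison addressed LP-10d treatment of 3xTg mice. It shares the 3xTg vehicle libraries with the first, so the values of the 2 comparisons are not independent and are set side by side only. None of the 9 genes passed edgeR, where 0% of all tested genes passed (0 of 17396), and none passed DESeq2, which called 0.00302% of genes (1 of 33112). At an unadjusted p under 0.05 in edgeR, 1 of the 9 (Mme) passed, against 2.9% of all tested genes. The edgeR adjusted p was 0.9997 for each of the 9.

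Apoe stood at 1791, 1754 and 1578 CPM in 3xTg LP-10d, with 1 library inside the 3xTg vehicle range of 1541 to 1592 CPM and 2 above it. Its mean was 1708 ± 114 CPM in 3xTg LP-10d and 1569 ± 25.7 CPM in 3xTg vehicle libraries (SD, n = 3 each), a log2 fold change of 0.12 (95% interval -0.09 to 0.33). The choroid plexus marker sums of the 3 treated libraries were 2226, 4025 and 195.9 CPM in the order of the Apoe values. The treated library with the lowest Apoe had the lowest sum, but the one with the highest sum did not have the highest Apoe. With the choroid plexus and striatum sums together as covariates the log2 fold change was 0.07. The part of the choroid plexus alone was not tested.

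Clu stood at 1139, 1126 and 1064 CPM in 3xTg LP-10d, all above the 3xTg vehicle range of 903 to 1041 CPM. Its log2 fold change was 0.16 (95% interval -0.13 to 0.45). It was 0.10 without 3xTg vehicle replicate 2 and 0.04 with the marker sums as covariates, each over 1.5 times smaller.

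Mme stood at 4.35, 3.79 and 4.12 CPM in 3xTg LP-10d, from 77, 64 and 75 counts, and all 3 were under the lowest 3xTg vehicle library at 4.53 CPM. The log2 fold change was -0.81 ± 0.32 (SE; 95% interval -1.52 to -0.09), with an edgeR p of 0.0311. Without 3xTg vehicle replicate 2 it was -0.26 (edgeR adjusted p = 1), and with the marker sums as covariates also -0.26 (edgeR adjusted p = 0.999). These 2 fits are not separate checks, since that library had a striatum sum of 1581 CPM, against 188.8 to 322.2 CPM elsewhere.

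Ece1 stood at 55.8, 64.1 and 58.3 CPM in 3xTg LP-10d, of which 2 lay under the 3xTg vehicle range of 62.0 to 75.3 CPM. Its log2 fold change was -0.23 ± 0.10 (SE; 95% interval -0.46 to 0.01), with an edgeR p of 0.0556. Ide stood at 10.7, 17.8 and 15.0 CPM in 3xTg LP-10d, a range wider than that of 3xTg vehicle on both sides, with a log2 fold change of 0.11 (95% interval -0.36 to 0.58).

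The groups overlapped for all 4 transporters and receptors. Abca1 stood at 48.9, 46.95 and 40.4 CPM in 3xTg LP-10d and Abca7 at 54.9, 57.0 and 51.6 CPM, with log2 fold changes of 0.04 (95% interval -0.29 to 0.37) and 0.02 (-0.23 to 0.27). Lrp1 stood at 1022, 1064 and 988.6 CPM and Sorl1 at 379.4, 373 and 430.7 CPM, with log2 fold changes of -0.06 (95% interval -0.26 to 0.14) and -0.01 (-0.24 to 0.23).

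Over the 9 genes, the groups did not overlap for 2, against 11.6% of all tested genes. Clu was higher without overlap, as were 5.82% of all tested genes, and Mme was lower without overlap, as were 5.81%. The median log2 fold change of the 9 was 0.02, with 5 above and 4 below 0, beside a median of -0.000328 and 49.9% above 0 over all tested genes.

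**Figure D4:**
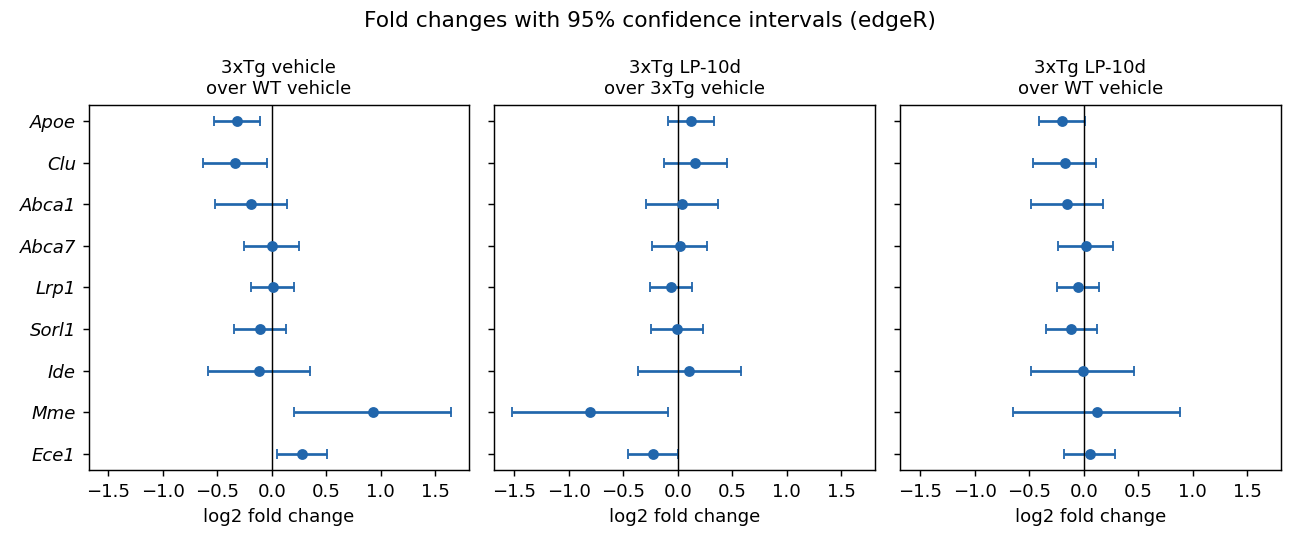
Log2 fold changes of the 9 genes with 95% confidence intervals from the edgeR fit of all 9 libraries, for 3xTg vehicle over WT vehicle, 3xTg LP-10d over 3xTg vehicle and 3xTg LP-10d over WT vehicle; a positive value means higher in the group named first. Unadjusted intervals clear of 0 are those of Apoe, Clu, Mme and Ece1 in the first panel and of Mme in the second.

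The third comparison set 3xTg LP-10d against WT vehicle. None of the 9 genes passed edgeR, where 0% of all tested genes passed, and none passed DESeq2, which called 0.251% of genes (46 of 18320). At an unadjusted p under 0.05, 0 of the 9 passed in edgeR, against 8.75% of all tested genes, and the groups overlapped for all 9, where 14.4% of all tested genes had groups that did not overlap (7.49% higher and 6.89% lower in 3xTg LP-10d). Apoe had the smallest p, with means of 1708 ± 114 CPM in 3xTg LP-10d and 1959 ± 153 CPM in WT vehicle (SD, n = 3 each). Its log2 fold change was -0.20 (95% interval -0.41 to 0.01; edgeR adjusted p = 0.586). For Mme the means were 4.09 ± 0.277 CPM in 3xTg LP-10d and 3.76 ± 0.331 CPM in WT vehicle, and the log2 fold change was 0.12 (95% interval -0.64 to 0.89). The log2 fold changes of the other 7 genes ran from -0.17 for Clu to 0.05 for Ece1. Leaving out WT vehicle replicate 3 gave -0.02 for Clu, and leaving out replicate 1 of that group gave -0.29. Leaving out replicate 2 of WT vehicle gave -0.01 for Abca1, in place of -0.15. The median over the 9 genes was -0.05, with 3 above and 6 below 0, beside a median of -0.00268 and 49.5% above 0 over all tested genes.

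Side by side, the log2 fold change of Apoe was -0.32 in 3xTg vehicle over WT vehicle, 0.12 in 3xTg LP-10d over 3xTg vehicle and -0.20 in 3xTg LP-10d over WT vehicle. For Clu the values were -0.34, 0.16 and -0.17, for Mme 0.93, -0.81 and 0.12, and for Ece1 0.28, -0.23 and 0.05. The 3 contrasts are made from the same 9 libraries and share groups pairwise, so these values are not independent of each other.

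Around these 9 genes, 100 further genes in 7 lists were examined, of which 98 were found by symbol and 84 were tested. They were 13 genes of lipoproteins and lipidation, 16 lipid and efflux transporters, 19 lipoprotein, sorting and amyloid receptors, 10 genes of endosomal trafficking, 19 peptidases, 10 protease inhibitors and extracellular amyloid binders, and 13 lipid-sensing transcription regulators. None of the 84 passed edgeR in any of the 3 comparisons. At an unadjusted p under 0.05, edgeR had 9 of 84 in 3xTg vehicle over WT vehicle, 3 in 3xTg LP-10d over 3xTg vehicle and 9 in 3xTg LP-10d over WT vehicle, where all tested genes had 14.1%, 2.9% and 8.75%. Groups did not overlap for 10, 6 and 9 of them in the same order, where all tested genes had 17.4%, 11.6% and 14.4%. Their median log2 fold changes were -0.01, 0.03 and -0.02.

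In 3xTg vehicle over WT vehicle, 4 of the 13 genes of lipoproteins and lipidation were tested (Apod, Lpl, Lcat and Pltp). All 4 had negative log2 fold changes, but the groups overlapped for Lpl, Lcat and Pltp. Only Apod had an unadjusted edgeR p under 0.05. Apod, an apolipoprotein made by glia, averaged 106.3 ± 6.82 CPM in 3xTg vehicle and 136.5 ± 14.3 CPM in WT vehicle (SD, n = 3 each; log2 fold change -0.36, edgeR adjusted p = 0.325). Among transporters Abca5 had the smallest p, at 34.3 ± 3.00 CPM in 3xTg vehicle and 26.5 ± 1.49 CPM in WT vehicle (SD, n = 3 each; log2 fold change 0.37, edgeR adjusted p = 0.218). Among receptors it was Lrp10, a relative of Lrp1, at 47.4 ± 6.19 CPM in 3xTg vehicle and 61.6 ± 4.68 CPM in WT vehicle (SD, n = 3 each; log2 fold change -0.38, edgeR adjusted p = 0.248).

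Among peptidases, Mmel1, the closest relative of neprilysin, averaged 1.97 ± 0.430 CPM in 3xTg vehicle and 0.806 ± 0.315 CPM in WT vehicle (SD, n = 3 each). Its log2 fold change of 1.28 did not pass (edgeR adjusted p = 0.182). Serpini1, which encodes the neuronal protease inhibitor neuroserpin, had a log2 fold change of 0.46, and Timp3, a metalloproteinase inhibitor, one of -0.49 (edgeR adjusted p = 0.209 and 0.231). Nr1h3, the liver X receptor alpha that is known to drive Abca1 and Apoe in macrophages, averaged 4.38 ± 0.845 CPM in 3xTg vehicle and 5.91 ± 0.672 CPM in WT vehicle (SD, n = 3 each; log2 fold change -0.43, edgeR adjusted p = 0.314). DESeq2 called 1 gene of the lists, Apoh, which was left out of the edgeR test by the filter on low counts and is named after its values were seen. Apoh had 88, 4 and 7 counts in 3xTg vehicle and 0, 5 and 1 counts in WT vehicle, so 1 library carried the call (DESeq2 adjusted p = 0.0499).

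In 3xTg LP-10d over 3xTg vehicle, the list genes at an unadjusted p under 0.05 included Mmp9, a matrix metalloproteinase. Mmp9 averaged 2.74 ± 0.157 CPM in 3xTg LP-10d and 1.94 ± 0.238 CPM in 3xTg vehicle libraries (SD, n = 3 each; log2 fold change 0.50), with an edgeR adjusted p that rounded to 1. Of the 10 endosomal trafficking genes, which include the retromer subunit Vps26a (log2 fold change 0.22, edgeR adjusted p = 1), 9 had positive log2 fold changes in 3xTg LP-10d over 3xTg vehicle, with a median of 0.05. Over all tested genes 49.9% were above 0, and 0 of the 10 had an unadjusted edgeR p under 0.05. In 3xTg vehicle over WT vehicle, which shares the 3xTg vehicle libraries, 7 of the 10 were negative.

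The genes whose log2 CPM was most like each of the 9 over the 9 libraries were sought among 10210 other tested genes with a mean of at least 10 CPM (10211 for Mme, which is itself under that mean). These are descriptions over libraries whose marker sums of neighbouring tissue differed, and the part of tissue composition in the r values was not tested. For Mme, 1 library at 11.8 CPM stood apart from the rest. Apoe was most like Efs (Pearson r = 0.967), Tmed10 (0.958) and Ddr2 (0.956), and Clu most like Bmp2k (0.974), St5 (0.965) and Trir (0.965). Mme was most like Tbc1d8 (0.972), Rap1gap (0.969) and Ptpn5 (0.968), and Ece1 most like Relt (0.954), Mirg (0.942) and Epha8 (0.933). For Abca1, Abca7, Lrp1, Sorl1 and Ide the closest were Ltbr (0.958), Ccdc117 (0.93), Gcnt2 (0.918), Enc1 (0.95) and Irak1bp1 (0.938). None of the 3 closest genes of any of the 9 was itself one of the 9.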

How the data were processed

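Hippocampal RNA was sequenced in 9 libraries, made from 300 ng of RNA with an MGI kit, per the labels' protocols. The authors deposited raw counts for 55471 genes and FPKM values for 33175 genes, and deposited the names and positions with the FPKM values. Positions are on mm10, the build named in the submitters' processing notes. Which aligner, counter and strand setting made the counts is not given in the sources used here. Reads of overlapping genes can therefore not be told apart. All columns of the libraries were used (0 left unused). From the counts, edgeR 4.0.16 in R 4.3.3 made 1 fit of all 9 libraries (filterByExpr, TMM, quasi-likelihood test with the newer method, Benjamini-Hochberg over 17396 genes, threshold 0.05). CPM was derived from the deposited counts, using library sizes scaled by TMM. SEs are the log2 fold change over the square root of F. Alternatives were DESeq2 1.42.0, other scaling and filter, the legacy test, the 6 libraries compared alone, a replicate block and left-out libraries; fits with marker sums and DESeq2 leave-one-outs were added after seeing the data. The fits were tested on simulated data for 3xTg vehicle over WT vehicle, where 4.64% of edgeR's calls and 15.1% of DESeq2's were false. Of the 1.5-fold changes put in, edgeR recovered 37.3% and DESeq2 52.2%. Of the 2-fold changes they recovered 85.1% and 89.6%. Changes were put only into genes above a minimum mean count. The simulated counts held no tissue differences and no outlying library, so these rates can differ in the real data. The genes, lists and tests were chosen with earlier results of these data known. Named are the 9 genes, up to 4 genes per list with the smallest p, any list gene that passed, markers, and the 3 genes most like each of the 9. Some genes that this rule allows are not reported here. Groups come from the labels, and the total counts of 16582086 to 19170969 set the counting error.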

Additional observations from a re-analysis of the deposited data

How the results depend on the processing

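For the 9 genes in 3 comparisons, 27 log2 fold changes were recomputed under 468 alternative values, of which 431 kept their direction and their side of the threshold. Apoe in 3xTg vehicle over WT vehicle passed only with DESeq2 (log2 fold change -0.32), there and in 3 of its 9 leave-one-out fits, and edgeR's adjusted p for it ran from 0.149 to 0.557. Signs turned in 33 cases over 11 results, all with a main size of at most 0.116, and the cause was not tested. In 3xTg vehicle over WT vehicle, Abca7 became 0.0077 with the replicate block and 0.0159 with the covariates, and Lrp1 -0.0399 without both replicate 3 of WT vehicle and replicate 2 of 3xTg vehicle and -0.0286 with the covariates. In 3xTg LP-10d over 3xTg vehicle, Lrp1 became 0.0096 without those libraries and 0.0020 with the covariates, and Sorl1 0.0044 with no filter on low counts. In 3xTg LP-10d over WT vehicle, Abca7 became -0.0675 without those libraries and Ide 0.0003 with the covariates. Leaving out 1 library or both of those, the ranges in 3xTg vehicle over WT vehicle were -0.1403 to 0.1333 for Abca7, -0.0570 to 0.0421 for Lrp1 and -0.2875 to 0.1035 for Ide. In 3xTg LP-10d over 3xTg vehicle they were -0.0572 to 0.1689 for Abca1, -0.0199 to 0.0728 for Abca7, -0.0946 to 0.0096 for Lrp1, -0.0730 to 0.0542 for Sorl1 and -0.0686 to 0.2859 for Ide. In 3xTg LP-10d over WT vehicle they were -0.0675 to 0.1524 for Abca7, -0.1856 to 0.2164 for Ide and -0.0042 to 0.1360 for Ece1.

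Of all genes, edgeR called 1 in 3xTg vehicle over WT vehicle, 3 with no filter, 0 with the covariates and 0 to 11 with 1 library left out, and DESeq2 called 340, among them 1 of the 9 genes and 1 of the list genes. DESeq2 called 1 gene in 3xTg LP-10d over 3xTg vehicle and 46 in 3xTg LP-10d over WT vehicle, where edgeR called 0, and 0 to 2 with 1 library left out. Correlations of the deviations of same-numbered libraries were -0.165, -0.097 and -0.122 for 3xTg vehicle with WT vehicle, where different-numbered ones had -0.044 to 0.180. For 3xTg LP-10d with 3xTg vehicle they were 0.193, 0.092 and 0.379, where different-numbered ones had -0.303 to 0.181. For 3xTg LP-10d with WT vehicle they were -0.170, 0.186 and -0.104, against -0.311 to 0.401. Deviations from means of 3 libraries cannot decide whether the numbers pair the samples. The replicate block left the count of genes called at 1 in 3xTg vehicle over WT vehicle and called none of the 9. Mme had the fewest counts of the 9 (64 to 207 per library) and the widest intervals. Its SD was 3.97 CPM in 3xTg vehicle, against 0.277 in 3xTg LP-10d and 0.331 in WT vehicle, and the part of depth in the intervals was not tested. Without both replicate 3 of WT vehicle and replicate 2 of 3xTg vehicle, Sorl1 in 3xTg vehicle over WT vehicle was -0.0045.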
